A study of Mus musculus with 9 samples.

Results

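The genes described here are those for the subunits of integrins and the chains of laminins, chosen by their gene symbols alone: every Itga and Itgb subunit gene and every Lama, Lamb and Lamc chain gene in the deposited table. The rule found 37 genes among the 22322 in the table, 26 for integrin subunits and 11 for laminin chains. Of these, 22 members passed the filter on low counts that left 12145 genes for testing (16 integrin and 6 laminin genes), and 15 did not. RNA-seq had been carried out on cultured mouse cells labelled retinal ganglion cells (RGCs, the output neurons of the retina), all with the genotype WT. Normal RGCs were grown in complete medium, and aging RGCs had been treated with D-galactose. Aging RGCs + USCs medium were aging RGCs cultured in conditioned medium of urine-derived stem cells (USCs), from which those cells had been removed. No group had the medium of the USCs without conditioning. A change of base medium and what the USCs released therefore cannot be told apart. Each group had 3 libraries, from replicated wells of purchased and passaged cells, so p-values measure the spread between wells and not between animals or isolations. The comparisons ask which genes differ with D-galactose, which differ in the conditioned medium, and how the treated cells stand against normal RGCs.

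Integrins are receptors of the plasma membrane, each made of an alpha and a beta chain that leave the endoplasmic reticulum together, and they tie the extracellular matrix to the actin cytoskeleton. Laminins are cross-shaped trimers of an alpha, a beta and a gamma chain and are the main adhesive proteins of basement membranes, including the inner limiting membrane on which the axons of RGCs grow. The beta chain encoded by Itgb1 is the partner of most alpha chains, whereas those encoded by Itgb2 and Itgb7 are known for their work in leukocytes.

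The libraries held 18189600 to 22342300 expected counts, with 13876 to 14339 genes detected. The label RGC did not match all of its markers: of 14 RGC genes, Pou4f2 and Pou4f3 had no count in any library, Thy1, Nefh, Gap43 and Elavl4 had at most 3 counts, and 4 (Rbpms, Isl1, Nefl and Tubb3) averaged over 1 FPKM (fragments per kilobase of transcript, scaled to the depth of the library). The cells are therefore called RGCs by their label. Keratin genes (Krt8, Krt18 and Krt19, at 148 to 361 FPKM) and Vim (778 to 940 FPKM) were high in every library. Cdh1, the epithelial cadherin, did not exceed 0.05 FPKM, and the keratin gene Krt5 had no count in any library. Of 10 epithelial markers 4 averaged over 1 FPKM, and of 10 mesenchymal markers 4 did.

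The promoters of 3 members are shown because their values stand out in the sections that follow: Itga5 was lower in aging RGCs and higher again with the medium, Itgb7 was higher in aging RGCs, and Itgb1 was close to absent. Each is the stretch of 250 bases before the annotated start in RefSeq on GRCm38.p6, written 5′ to 3′ on the strand of the gene, with copies of the GC box GGGCGG on either strand in capitals. The windows are chr15:103366792-103367041 (minus strand) for Itga5, chr15:102231936-102232185 (minus strand) for Itgb7 and chr8:128685404-128685653 (plus strand) for Itgb1.
Itga5: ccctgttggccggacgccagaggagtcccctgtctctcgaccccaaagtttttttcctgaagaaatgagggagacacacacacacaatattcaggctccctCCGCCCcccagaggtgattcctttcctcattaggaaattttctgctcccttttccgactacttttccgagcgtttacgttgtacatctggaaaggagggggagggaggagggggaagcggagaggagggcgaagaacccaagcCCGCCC
Itgb7: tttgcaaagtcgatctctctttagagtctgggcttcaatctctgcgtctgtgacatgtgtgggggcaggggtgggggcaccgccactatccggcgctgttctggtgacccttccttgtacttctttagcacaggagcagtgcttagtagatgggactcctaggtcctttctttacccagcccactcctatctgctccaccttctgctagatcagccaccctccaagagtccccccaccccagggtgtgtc
Itgb1: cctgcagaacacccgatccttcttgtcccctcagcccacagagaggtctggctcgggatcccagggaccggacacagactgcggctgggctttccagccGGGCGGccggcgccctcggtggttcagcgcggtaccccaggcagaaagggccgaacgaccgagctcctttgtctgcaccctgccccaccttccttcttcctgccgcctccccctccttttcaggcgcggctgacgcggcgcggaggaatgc

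The Itga5 window held 2 GC boxes, 11 CpG and 55.6% G and C, and the Itgb1 window held 1 GC box, 21 CpG and 68% G and C. The Itgb7 window held no GC box and 5 CpG, at 56% G and C. Over all 32851 promoters of the same length, the medians were 52.4% G and C and 6 CpG, and 32.74% held a GC box. A promoter was given for 15 of the 22 tested members, in 16 windows, of which 9 held a GC box, 2 a CCAAT box (CCAAT, 33.85% of all promoters) and none the letters of AP-1 (TGAGTCA, 4.46%), the TATA box (TATAAA, 12.37%) or the E-box (CACGTG, 6.02%), all searched on both strands. A match in these letters is a description of the sequence and not a binding site.

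Read per length of transcript, the cells held a small set of chains at high levels and lacked most of the others. Mean FPKM over the 9 libraries was highest for the laminin genes Lamc1 (61.5) and Lamb1 (61.1), followed by the integrin genes Itga5 (56.7), Itga3 (56.1), Itgav (53.1), Itga6 (47.9) and Itgb7 (45.3). Lama5 stood at 43.3, Itgb2 at 32.7, Itgb5 at 29.5 and Lamb2 at 18.6 FPKM. Of the other tested members, Itga7, Itgb3, Itga1, Itga10 and Itga2 lay between 1.24 and 4.29 FPKM, and Itga2b, Itgb1, Itga4, Itgam and Lama3 lay below 1 FPKM.

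**Figure D1:**
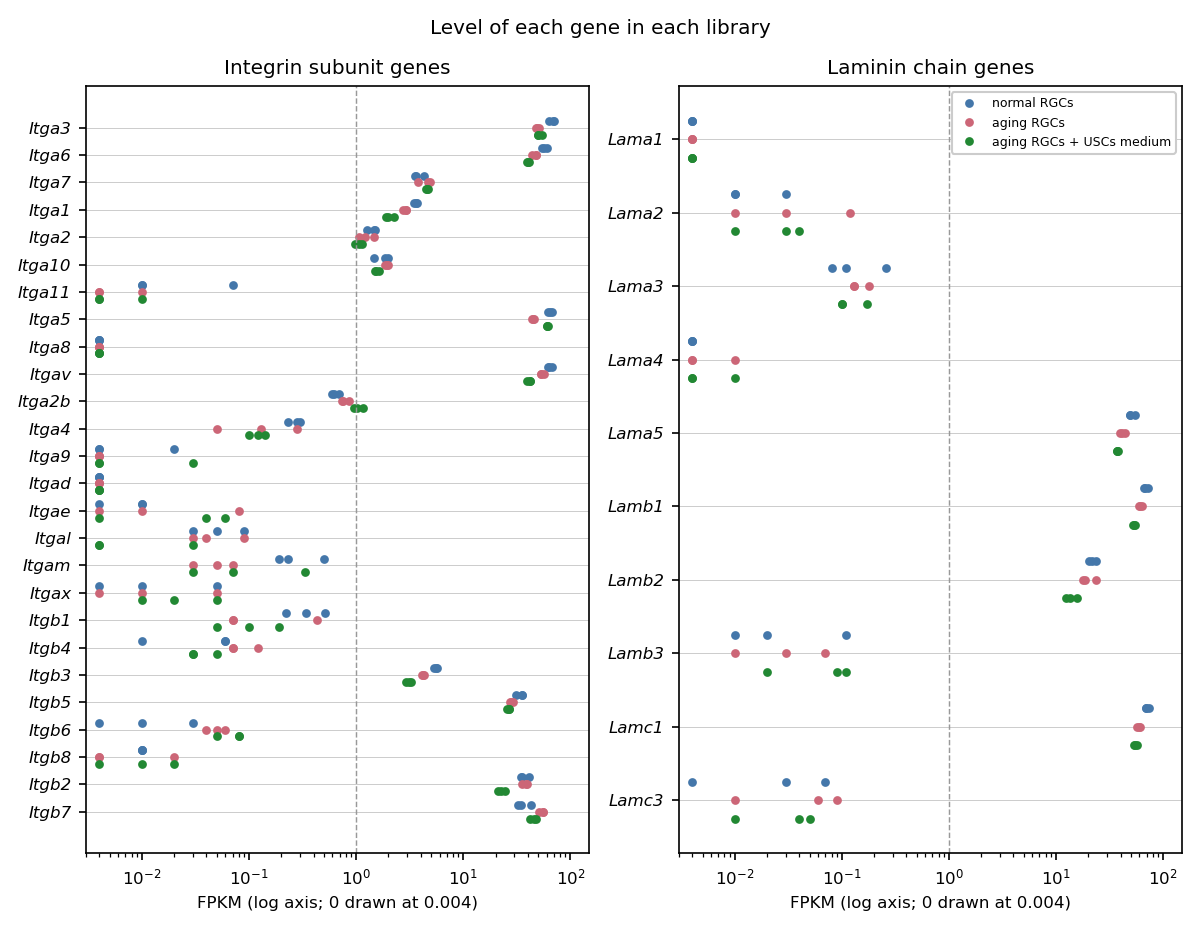
FPKM of 36 integrin and laminin genes on a log axis, with a point for each library (blue, normal RGCs; red, aging RGCs; green, aging RGCs + USCs medium), a dashed line at 1 FPKM and values of 0 drawn at 0.004. Genes such as Lamc1 and Itga5 lie above 40 FPKM in all libraries, whereas Itgb1 lies between 0.05 and 0.51 FPKM.

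No count was found for Itga8, Itgad and Lama1 in any of the 9 libraries. The other untested members had at most 13 counts in a library and at most 0.12 FPKM: the alpha subunit genes Itga9, Itga11, Itgae, Itgal and Itgax, the beta subunit genes Itgb4, Itgb6 and Itgb8, and the laminin genes Lama2, Lama4, Lamb3 and Lamc3. None of these 15 members was tested.

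The level of Itgb1 was low in every library. Its expected counts were 19, 38 and 26 in normal RGCs, 29, 5 and 5 in aging RGCs, and 8, 3 and 15 in aging RGCs + USCs medium. These are 0.05 to 0.51 FPKM. The summed FPKM of the alpha subunit genes Itga1 to Itga11, whose products pair with the Itgb1 product, was 149.75 to 203.08 in the same libraries. Itgav, whose product also pairs with it, and Itga2b were left out of the sum. Genes that every cell uses were abundant (Actb at 703.59 to 807.3 FPKM, Hprt at 67.81 to 105.45), and Nrp1, a neighbour of Itgb1 on chromosome 8, had 81 to 266 counts. Itgb1 (ENSMUSG00000025809, chr8:128685654-128733200 in GENCODE M21 on GRCm38) overlapped no exon of another gene, and none of its stretches of 50 bases occurred in the transcripts of another gene. Among the integrin-associated membrane proteins, Cd81, which is also found on nearly all cells and was picked out after its values were seen, had 13 to 36 counts.

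Set beside the chains that are known to join, few complete integrins had all their transcripts present. Of 24 known alpha and beta pairs, only Itgav with Itgb3 and Itgav with Itgb5 had both chains over 1 FPKM in all 9 libraries. Itgb1 is a chain of 12 of the 24, and for 7 of those 12 (with Itga1, Itga3, Itga5, Itga6, Itga7, Itga10 and Itgav) it was the only chain not over 1 FPKM, so the count rests largely on the level of Itgb1. Itgav with Itgb5, a receptor for vitronectin, had its lower chain at 31.3 to 35.29 FPKM in the normal libraries and 27.03 to 29.35 in the aging ones. The pair of Itga2b and Itgb3, the fibrinogen receptor of platelets, passed 1 FPKM for both chains in 2 libraries, both of them with the medium. The pairs of Itgb2 and Itgb7 lacked the alpha side: Itgb2 averaged 22.8 to 38 FPKM over the groups with its partners Itgal, Itgam, Itgax and Itgad at 0.5 FPKM or less, and Itgb7 averaged 36.5 to 54.2 FPKM with Itga4 and Itgae at 0.3 FPKM or less. Of 14 laminin trimers, only those of Lama5, Lamb1 and Lamc1 (laminin 511) and of Lama5, Lamb2 and Lamc1 (laminin 521) had all 3 chains over 1 FPKM in all libraries. The pairs and trimers were listed after the levels were known, and transcripts do not show which proteins the cells assembled.

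**Figure D2:**
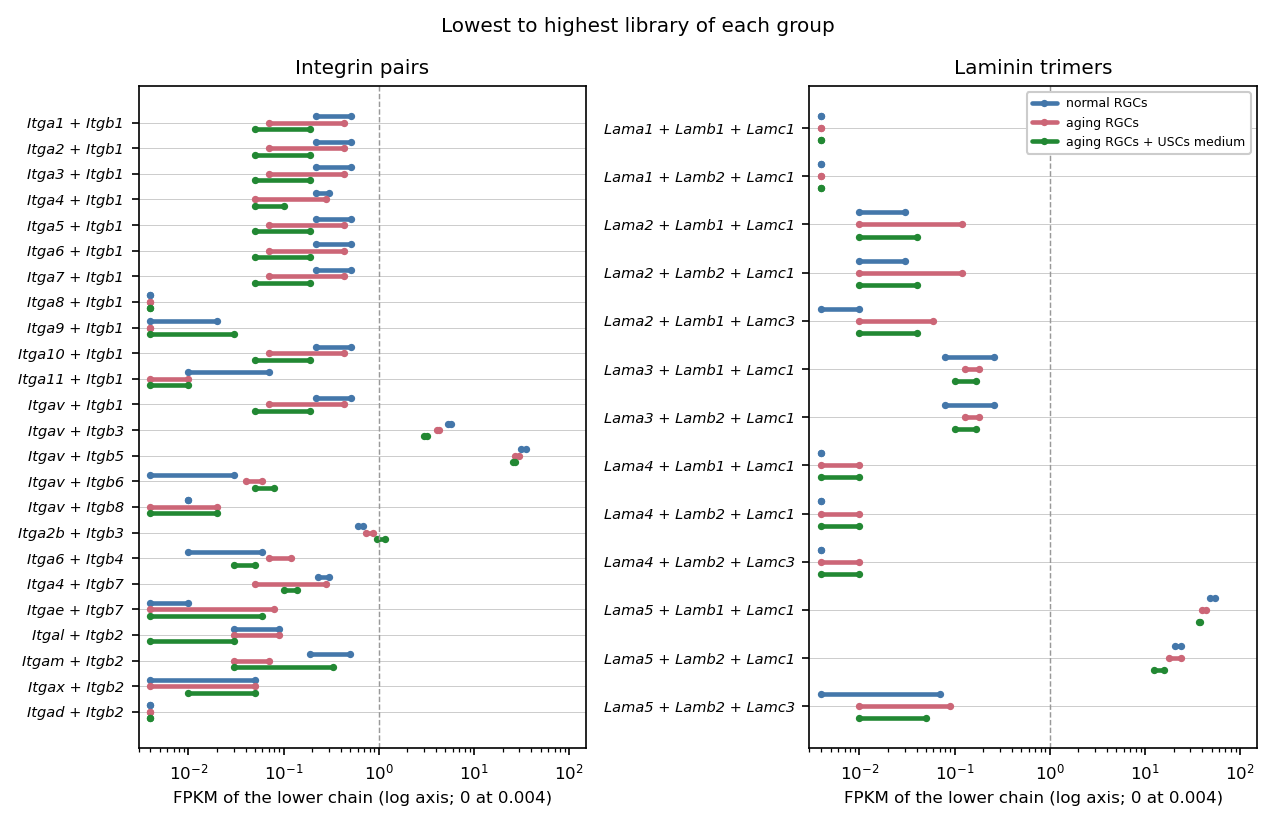
FPKM of the lower chain in each of 24 integrin pairs (left) and 13 laminin trimers (right) on a log axis, with a bar from the lowest to the highest library of each group and a dashed line at 1 FPKM. Itgav with Itgb3, Itgav with Itgb5 and the trimers of Lama5 with Lamc1 and either Lamb1 or Lamb2 lie right of the line in all 3 groups.

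In aging RGCs against normal RGCs, more members fell than rose, and the shifts were small. At an adjusted p under 0.05 (the quasi-likelihood test of edgeR, with Benjamini-Hochberg adjustment over all 12145 genes), 13 of the 22 tested members fell and 2 rose (Itga7 and Itgb7), against 23% of all tested genes that fell and 23.5% that rose. DEGs were taken here as genes that in addition changed at least 2-fold. By that rule 1 member, Itgam, was downregulated (background 1.56%) and 0 were upregulated (background 1.09%). The call of Itgam was on few counts, and Itgam had passed the filter on low counts through the normal libraries. The median log2 fold change was -0.24 over the members and 0.00 over all tested genes. The 3 libraries of aging RGCs lay wholly above or below those of normal RGCs for 15 members (68.2%), and for 53.0% of all tested genes. At 1.5-fold, 2 members were lower (background 4.82%) and 1 higher (background 3.1%). In bulk RNA, fewer cells of a type and less RNA per cell cannot be told apart.

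With the medium, aging RGCs had 8 members lower and 3 higher than aging RGCs at the same threshold (background 26% lower and 27.1% higher). None of these reached 2-fold, neither down (background 4.21%) nor up (background 1.24%), and at 1.5-fold 1 was lower (background 8.34%) and 0 higher (background 3.47%). Itga5 and Itga2b were among those that rose. The median log2 fold change was -0.15 over the members and -0.01 over all tested genes, and 12 members (54.5%) had groups that did not overlap, against 59.8% of all tested genes. Without TMM scaling, the share of all passing genes that were higher went from 51.1% to 35.9%, and the members from 8 lower and 3 higher to 11 lower and 2 higher.

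In aging RGCs + USCs medium against normal RGCs, 15 members fell and 4 rose (Itga2b, Itga7 and Itgb7 among them), against 29.9% and 30.6% of all tested genes. Itga4, Itgam and Itgb1 were downregulated by the 2-fold rule (background 5.24%), all 3 on few counts, and 0 members were upregulated (background 1.47%). At 1.5-fold, 6 were lower (background 11%) and 1 higher (background 4.57%). The median log2 fold change was -0.30 over the members and -0.01 over all tested genes, and the groups did not overlap for 18 members (81.8%), against 63.8% of all tested genes. Without TMM scaling, the median of all tested genes moved by -0.10, the share of passing genes that were higher went from 50.6% to 34.7%, and 16 members fell and 4 rose. This comparison shares its libraries with the other two, so the values for a gene are set side by side and are not independent.

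**Figure D3:**
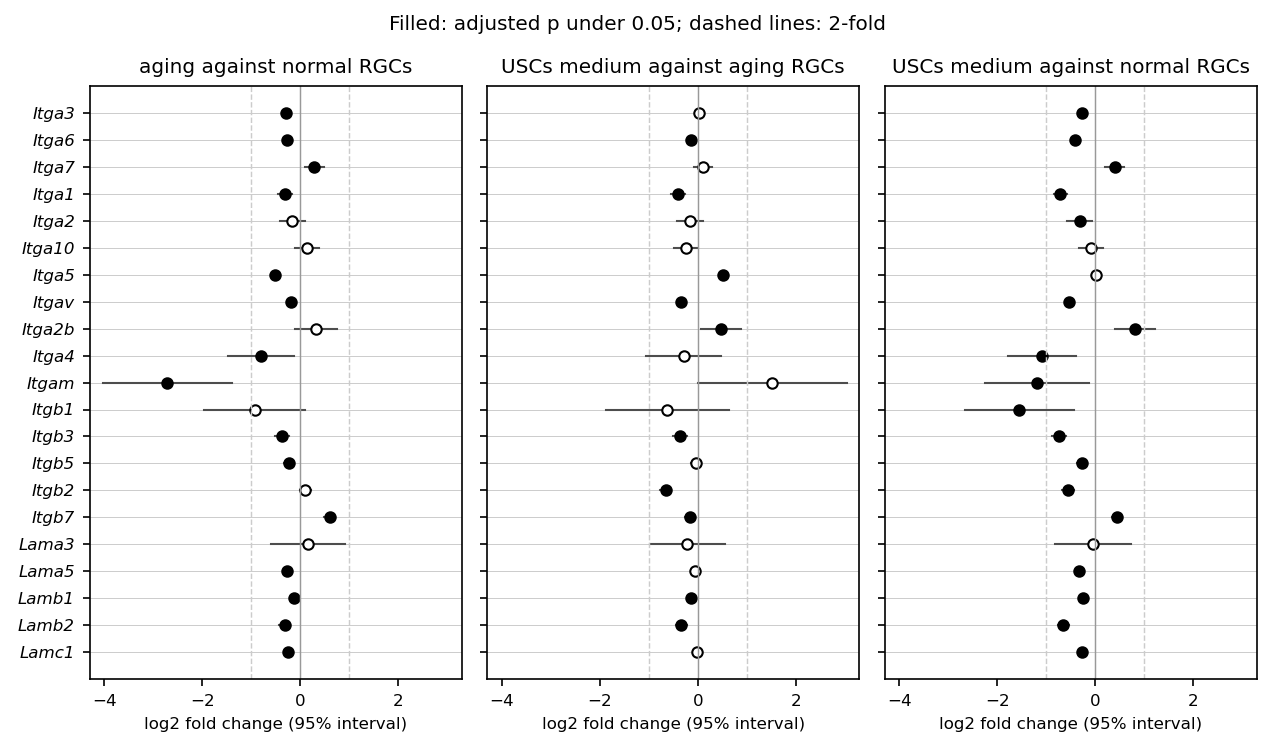
Log2 fold change of 21 tested members in the 3 comparisons with 95% intervals from edgeR's quasi-likelihood fit, where filled points have an adjusted p under 0.05 and dashed lines mark 2-fold. Most points lie left of 0. Itga5 lies at -0.51 in aging against normal RGCs and at 0.52 with the medium against aging RGCs. With the medium against normal RGCs it lies at 0.01 (-0.09 without TMM scaling).

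Among the receptors for fibronectin and vitronectin, which bind the RGD motif of their ligands, Itga5 and Itgav went different ways with the medium. Itga5 (ENSMUSG00000000555, chr15:103344286-103366763, minus strand) encodes the alpha chain of the fibronectin receptor. Its CPM (counts scaled to a common library size by TMM) was 289, 264 and 274 in normal RGCs, 191, 197 and 191 in aging RGCs, and 275, 285 and 273 in aging RGCs + USCs medium. All aging libraries lay below all others, and the normal and medium libraries overlapped. Itga5 fell in aging RGCs (log2 fold change -0.51, SE 0.036, adjusted p by edgeR 2.54e-12) and rose with the medium (0.52, SE 0.0361, adjusted p by edgeR 1.17e-12). Against normal RGCs the treated cells differed by 0.01 with a 95% interval from -0.06 to 0.08 and an adjusted p by edgeR of 0.82, and without TMM scaling by -0.09 with an adjusted p of 0.0292.

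Itgav, whose product pairs with several beta chains to bind vitronectin and latent TGF-beta, stood at 379, 368 and 368 CPM in normal RGCs, 329.9, 321 and 322 in aging RGCs and 254, 255 and 259.7 with the medium. The 3 groups did not overlap. Itgav (chr2:83724397-83806916, plus strand) overlaps a gene model on the other strand, Gm13684. It fell in aging RGCs (log2 fold change -0.20, SE 0.0312, adjusted p by edgeR 6.95e-06) and was lower again with the medium (-0.34, SE 0.0318, adjusted p by edgeR 5.64e-10). Its beta partners Itgb3 and Itgb5 are the only ones measured above 1 FPKM. Itgb3 stood at 30.2 to 32 CPM in the normal libraries, 23.3 to 24.6 in the aging ones and 17.7 to 19.4 with the medium, and fell in both steps (log2 fold changes -0.38 and -0.36, adjusted p by edgeR 3.69e-05 and 0.000118). Itgb5 fell in aging RGCs (-0.24, SE 0.0472, adjusted p by edgeR 0.000159) and differed by -0.03 with the medium (95% interval -0.13 to 0.06). Itga2b, the platelet alpha chain, had 43 to 84 counts and a log2 fold change of 0.33 in aging against normal RGCs (adjusted p by edgeR 0.217), and rose with the medium by 0.48 (adjusted p by edgeR 0.0423). That last call was lost under DESeq2 (adjusted p 0.0677), without TMM scaling (0.0854) and without any of aging 1, aging 2, medium 1 or medium 2 (adjusted p 0.0651 to 0.153).

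The laminin-binding alpha subunits are encoded by Itga3, Itga6 and Itga7. Itga3 stood at 241, 233 and 231 CPM in normal RGCs, 185, 194 and 197 in aging RGCs and 201, 200.5 and 186 with the medium. The normal libraries lay above all others, and aging libraries overlapped those with the medium. Itga3 fell in aging RGCs (log2 fold change -0.29, SE 0.0373, adjusted p by edgeR 2.65e-07) and differed by 0.03 with the medium (95% interval -0.05 to 0.10).

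Itga6, which pairs with the products of Itgb1 and Itgb4, stood at 223, 250.1 and 234 CPM in normal RGCs, 201, 199 and 183 in aging RGCs and 174, 178 and 181 with the medium. The 3 groups did not overlap. It fell in aging RGCs (log2 fold change -0.28, SE 0.041, adjusted p by edgeR 2.56e-06) and again with the medium (-0.13, SE 0.0418, adjusted p by edgeR 0.00995). The second call was lost without aging 1, without aging 2 or without medium 1 (adjusted p by edgeR 0.0581 to 0.0659). Itga7, the alpha chain best known from muscle, rose in aging RGCs (0.28, SE 0.0938, adjusted p by edgeR 0.014), although aging 2 lay at 15 CPM among the normal libraries (13.6 to 15.9 CPM). That call was lost without normal 2, aging 1 or aging 3 (adjusted p by edgeR 0.0613 to 0.113) and on FPKM (adjusted p by limma 0.1462 and 0.1505). Itga7 was also higher in the treated cells against normal RGCs (0.40, adjusted p by edgeR 0.00055), a call lost on FPKM (adjusted p by limma 0.0718 and 0.0725).

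Of the collagen-binding alpha subunits, Itga1 was the member that passed in every comparison. It stood at 37.1 to 39.4 CPM in the normal libraries, 29.3 to 31.9 in the aging ones and 21.7 to 25.7 with the medium. The groups did not overlap, and it fell in aging RGCs (log2 fold change -0.31, SE 0.0661, adjusted p by edgeR 0.00031) and with the medium (-0.40, SE 0.0704, adjusted p by edgeR 2.14e-05). Of its stretches of 50 bases, 3.27% are shared with other genes, and its exons overlap Gm49395, a gene model with 0 to 19.2 counts. Itga2 lay between 7.24 and 10.5 CPM and fell in the treated cells against normal RGCs by 0.32 on the log2 scale (adjusted p by edgeR 0.0294), a call lost without normal 1, normal 3, medium 1 or medium 2 (adjusted p by edgeR 0.0566 to 0.11). Itga10 passed in none of the 3 comparisons (adjusted p by edgeR 0.0985 to 0.518). Of its stretches of 50 bases, 30.6% are shared with other genes, and its exons overlap the gene model Gm42957, so its counts are uncertain.

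The beta subunit genes Itgb2 and Itgb7 went apart. Itgb7 (ENSMUSG00000001281, chr15:102215995-102231944, minus strand) encodes the beta chain of the gut-homing receptor of lymphocytes. It stood at 75.9, 90.3 and 74.9 CPM in normal RGCs, 120.3, 126 and 119.5 in aging RGCs and 107, 113 and 107 with the medium. All aging libraries lay above all normal ones, and those with the medium lay between. Itgb7 rose in aging RGCs (log2 fold change 0.60, SE 0.0521, adjusted p by edgeR 1.97e-10) and fell with the medium (-0.16, SE 0.0511, adjusted p by edgeR 0.00893), the latter call being lost without aging 2 (adjusted p by edgeR 0.0568). The treated cells stayed above normal RGCs (0.44, SE 0.0525, adjusted p by edgeR 3.4e-08).

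Itgb2, the common beta chain of the leukocyte integrins, stood at 75, 91 and 77.4 CPM in normal RGCs, 83.9, 89.5 and 87.1 in aging RGCs and 55.7, 54.2 and 55.7 with the medium. Normal and aging libraries overlapped, and all medium libraries lay below both. The log2 fold change in aging RGCs was 0.10 with a 95% interval from -0.01 to 0.21 (adjusted p by edgeR 0.141), and became 0.19 with an adjusted p of 0.00196 without normal 2. Itgb2 fell with the medium (log2 fold change -0.65, SE 0.057, adjusted p by edgeR 1.41e-10). Of 8 T and B lymphocyte markers, 5 had no count in any library, and the summed FPKM of the 8 did not exceed 0.23. The 14 macrophage markers summed to 54.38 to 65.56 FPKM in the normal libraries, 44.31 to 48.82 in the aging ones and 32.42 to 52.24 with the medium. Of the 14, only 3 averaged over 1 FPKM (Cd68, Cd14 and Lyz2), and Cd68 alone stood at 22.28 to 35.84 FPKM. The part of macrophage transcripts in the values of Itgb2 was not tested.

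**Figure D4:**
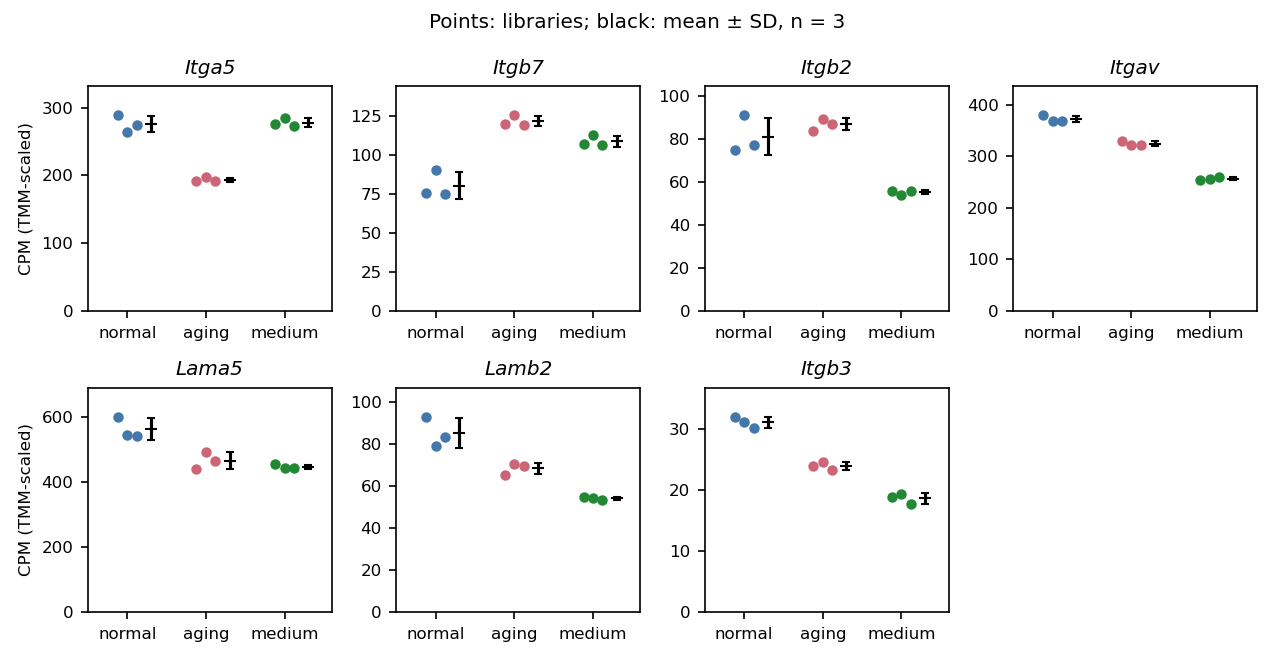
TMM-scaled CPM of 7 members in each library, with the mean ± SD (n = 3) in black and axes that start at 0. Itga5 is lowest in the aging libraries (191 to 197 CPM), Itgb7 is highest in them (119.5 to 126 CPM) and Itgb2 is lowest with the medium (54.2 to 55.7 CPM).

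The laminin chains that were well expressed were all lower in aging RGCs. Lama5 (chr2:180176373-180225859, minus strand) encodes the only laminin alpha chain above 1 FPKM, and it made up 99.4% to 99.8% of the summed FPKM of the alpha chains in every library. It stood at 600.0, 545 and 541 CPM in normal RGCs, 441, 491 and 466 in aging RGCs and 454, 442 and 442 with the medium, so the normal libraries lay above all others. Lama5 fell in aging RGCs (log2 fold change -0.27, SE 0.0385, adjusted p by edgeR 1.43e-06) and differed by -0.06 with the medium (95% interval -0.14 to 0.02, adjusted p by edgeR 0.173). The latter passed without TMM scaling (-0.14, adjusted p by edgeR 0.00318) and without aging 1 (-0.10, adjusted p by edgeR 0.0489). It also passed on log2(FPKM + 1) and log2(FPKM + 0.1) (adjusted p by limma 0.0448 and 0.0437).

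Lamc1, the gamma chain of most laminins, went the same way. Its CPM was 543, 515 and 517 in normal RGCs, 428, 453 and 447 in aging RGCs and 451, 427 and 430.0 with the medium. Lamc1 fell in aging RGCs (log2 fold change -0.25, SE 0.0332, adjusted p by edgeR 6.36e-07), and the medium libraries overlapped the aging ones (-0.02, 95% interval -0.09 to 0.05). The latter difference passed without TMM scaling (-0.101, adjusted p by edgeR 0.0117) and on log2(FPKM + 1) (-0.0989, adjusted p by limma 0.0496).

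The beta chain genes Lamb1 and Lamb2 fell in both steps. Lamb1 stood at 394, 371 and 380.4 CPM in normal RGCs, 338, 362 and 346 in aging RGCs and 319, 316 and 321 with the medium, with log2 fold changes of -0.13 in aging RGCs (SE 0.0333, adjusted p by edgeR 0.00176) and -0.13 with the medium (SE 0.0336, adjusted p by edgeR 0.00198). Lamb2, which is the beta chain of synaptic and retinal laminins, stood at 93, 79.3 and 83.6 CPM in normal RGCs, 65.4, 70.4 and 69.7 in aging RGCs and 54.8, 54.4 and 53.5 with the medium. Its groups did not overlap, and the log2 fold changes were -0.32 in aging RGCs (SE 0.0522, adjusted p by edgeR 1.2e-05) and -0.34 with the medium (SE 0.0548, adjusted p by edgeR 7.47e-06). On deposited FPKM in place of counts, the difference of Lamb2 in aging RGCs was -0.13 on the log2(FPKM + 1) scale and did not pass (adjusted p by limma 0.382). In the summed FPKM of the beta chains, Lamb1 took 75.0% to 76.7% in the normal libraries, 72.8% to 77.4% in the aging ones and 77.1% to 80.9% with the medium.

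Lama3 and Lamb3 encode chains known from epithelial laminin, and the products of Itga6 and Itgb4 form the receptor of hemidesmosomes. Lama3 had 13, 30 and 17 counts in normal RGCs, 17, 23 and 21 in aging RGCs and 16, 23 and 15 with the medium, and passed in no comparison (adjusted p by edgeR 0.66 to 0.922). Lamb3 had 1 to 7 counts. Itgb4 had 8, 1 and 7 counts in normal RGCs, 7, 8 and 13 in aging RGCs and 6, 4 and 3 with the medium, so Itga6, at 39.32 to 60.77 FPKM, stood beside a receptor partner of at most 0.12 FPKM.

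The members called at 2-fold, Itgam, Itga4 and Itgb1, had few counts. Itgam, the alpha chain of the macrophage integrin, had 52, 18 and 21 counts in normal RGCs, 6, 3 and 3 in aging RGCs and 5, 2 and 29 with the medium. The aging libraries lay below the normal ones, while medium 3 lay among the normal libraries and the other medium libraries did not. Itgam passed the filter on low counts through the normal libraries, where it was high. It was downregulated in aging RGCs (log2 fold change -2.72, SE 0.643, adjusted p by edgeR 0.000932), differed by 1.52 with the medium (95% interval 0.00 to 3.05, adjusted p by edgeR 0.0872) and by -1.20 in the treated cells against normal RGCs (adjusted p by edgeR 0.049). The last call was lost under DESeq2 (adjusted p 0.291), in the fit of only the 2 groups (0.056), by limma on FPKM (0.113 and 0.16), without normal 1 (-0.64, adjusted p by edgeR 0.379), without medium 1 or medium 2 (0.223 and 0.274) and without any aging library (0.056 to 0.0605). Without medium 3 it was -2.94 with an adjusted p by edgeR of 0.000263. The comparison with aging RGCs passed without medium 1 (1.89, adjusted p by edgeR 0.0454) and without medium 2 (2.04, adjusted p by edgeR 0.0185). It also passed with no filter on low counts (1.53, adjusted p by edgeR 0.0208), and without medium 3 it was -0.23. Of 14 macrophage markers, 7 were lower in FPKM in all aging libraries than in all normal ones and higher in medium 3 than in the other medium libraries (C1qb, C1qc, Adgre1, Tyrobp, Lyz2, Laptm5 and Fcer1g). The most abundant of the 14 did not share the first part of this pattern. Cd68 stood at 30.31 to 35.84 FPKM in the normal libraries and 33.36 to 35.51 in the aging ones, and Cd14 at 7.5 to 8.48 and 7.62 to 8.16. The second part was shared by 13 of the 14. The pattern was taken from Itgam after its values were seen, and its share over all genes was not counted. In CPM, the aging and normal libraries did not overlap, in either direction, for 53.0% of all tested genes. In medium 3, Cd68 stood at 27.24 FPKM (23.65 and 22.28 in medium 1 and medium 2) and Cd14 at 10.03 (8.14 and 8.42). Of the 7, Adgre1 had 57, 19 and 43 counts in normal RGCs, 2, 0 and 1 in aging RGCs and 2, 2 and 32 with the medium, Lyz2 had 210 to 522, 23 to 118 and 20 to 241 counts, and C1qb had no count in 5 libraries and 15 in medium 3. The part of such transcripts in the values of Itgam was not tested. The transcripts of Itgam share 66.3% of their stretches of 50 bases with other genes. Its exons overlap the gene model Gm49368, which is listed at 0 in all libraries.

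Itga4, the alpha chain of the receptor for Vcam1, shares exon bases with Cerkl on the other strand (0 to 2 counts) and had 50, 58 and 55 counts in normal RGCs, 49, 10 and 25 in aging RGCs and 28, 24 and 19 with the medium. Aging 1 lay close to the normal libraries and aging 2 below all others. The log2 fold change in aging RGCs was -0.80 (SE 0.333, adjusted p by edgeR 0.0497), and the call was lost in 11 of the alternatives, among them DESeq2 (adjusted p 0.073) and the fit without aging 2 (-0.40, adjusted p by edgeR 0.32), while without aging 1 it was -1.51 (adjusted p by edgeR 0.0011). With the medium against aging RGCs it was -0.29 (adjusted p by edgeR 0.545) and turned to 0.43 without aging 1. Itga4 was downregulated in the treated cells against normal RGCs (-1.09, SE 0.342, adjusted p by edgeR 0.00744). That call was lost by limma on FPKM (adjusted p 0.0704 on log2(FPKM + 1) and 0.0663 on log2(FPKM + 0.1)).

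For Itgb1, whose counts are given above, aging 1 lay among the normal libraries and both other aging libraries lay below them. The log2 fold change in aging RGCs was -0.93 (95% interval -1.97 to 0.10, adjusted p by edgeR 0.133) and -2.33 without aging 1 (adjusted p by edgeR 0.00226). With the medium against aging RGCs it was -0.62 (adjusted p by edgeR 0.408) and turned to 0.77 without aging 1. Itgb1 passed the filter on low counts through the normal libraries, where it was high. It was downregulated in the treated cells against normal RGCs (-1.56, SE 0.542, adjusted p by edgeR 0.0148). That call was lost under DESeq2 (adjusted p 0.12) and by limma on FPKM (adjusted p 0.0692 and 0.0584). It was also lost without normal 2, medium 1 or medium 2 (adjusted p by edgeR 0.0503 to 0.101). Aging 1 also had the highest counts of the aging libraries for Itgam, Csf1r and Lyz2 (in FPKM, Csf1r was highest in aging 2), and what sets it apart was not tested.

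**Figure D5:**
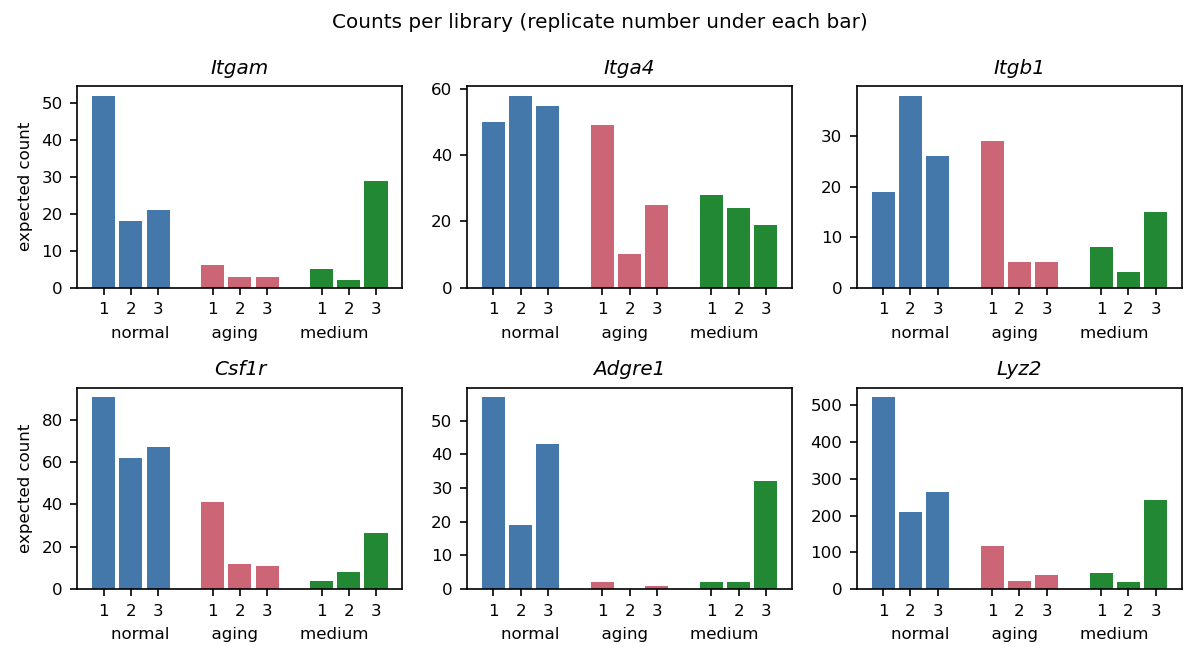
Expected counts in each library (bars, replicate number below) of the members Itgam, Itga4 and Itgb1 and of the macrophage genes Csf1r, Adgre1 and Lyz2, with axes that start at 0. Itgam and Adgre1 are high in the 3 normal libraries and in medium 3 (29 and 32 counts), and Itga4 and Itgb1 are high in aging 1 (49 and 29 counts) beside the normal libraries.

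The genes that work with integrins and laminins were read from 7 lists. Their counts stand beside the shares over all tested genes given above, 23% lower and 23.5% higher in aging RGCs and 26% lower and 27.1% higher with the medium. Of 25 other integrin ligands in the table, 17 were tested, and 5 fell and 7 rose in aging RGCs, while 11 fell and 3 rose with the medium (median log2 fold change -0.49, against -0.01 over all tested genes). Fn1, which encodes fibronectin, the ligand of the Itga5 product, averaged 1001 CPM in normal RGCs, 653 in aging RGCs and 464 with the medium, and was downregulated in the treated cells against normal RGCs (-1.11, SE 0.038, adjusted p by edgeR 3e-19). Spp1 (osteopontin) was likewise downregulated in that comparison (-1.29). Tnc, which encodes tenascin-C, was upregulated in aging RGCs (1.12, 26 to 56.5 CPM) and downregulated with the medium (-2.39). Edil3 (-1.45), whose product binds integrins of Itgav, Thbs2 (-1.17), a thrombospondin gene, and Vcam1 (-1.39), whose product is a ligand of the Itga4 integrin, were downregulated with the medium. Ccn2, a matricellular protein gene, was upregulated in aging RGCs (1.09) and again with the medium (1.22). Vwf was upregulated in aging RGCs (1.84) and downregulated with the medium (-2.23), at a mean of 0.324 to 1.54 CPM.

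Of 19 partners of laminin in basement membranes, 11 were tested, of which 5 fell and 2 rose in aging RGCs, and 9 fell and 0 rose with the medium. The median log2 fold change with the medium was -0.33. Col4a5, a collagen IV chain, was downregulated in the treated cells against normal RGCs (-1.31, 149 to 59.9 CPM), and was the only gene of this list past 2-fold in any comparison. Of the laminin receptors outside the integrin family, 8 of 9 were tested, and 3 fell and 1 rose in aging RGCs while 3 fell and 4 rose with the medium. Bcam, a receptor for the Lama5 product, was downregulated in the treated cells against normal RGCs (-1.12, 8.28 to 3.81 CPM). All 4 genes of the hemidesmosome were tested, with 1 lower in aging RGCs and 1 lower with the medium.

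Genes of the inner side of the membrane were counted in the same way. Of 20 talin, kindlin and adaptor genes, 18 were tested, with 3 lower and 6 higher in aging RGCs and 8 lower and 5 higher with the medium. Fermt3, the kindlin of blood cells, was downregulated in the treated cells against normal RGCs, just past the 2-fold limit (adjusted p by edgeR 0.035), at a mean below 1 CPM in each group. Of 16 genes of FAK, ILK and Src signalling, all were tested, with 4 lower and 3 higher in aging RGCs and 4 lower and 4 higher with the medium, which is near the share over all tested genes or below it. Lims2, which encodes an adaptor that binds ILK, averaged 1.54 CPM in normal RGCs, 1.2 in aging RGCs and 10.1 with the medium, and was upregulated with the medium (log2 fold change 3.08, SE 0.21, adjusted p by edgeR 1.2e-12). Of 10 tetraspanins and other membrane proteins that associate with integrins, 3 fell and 3 rose in aging RGCs and 4 fell and 2 rose with the medium, none past 2-fold.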

How the data were processed

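Total RNA of 9 cultures was enriched for poly(A) RNA with Oligo(dT) beads and sequenced. The authors deposited 1 table for the series with FPKM and read counts per gene. Between 6.92% and 7.38% of the deposited counts per library are not whole, so they were handled by rounding, the usual step for expected counts. The labels name the genome build mm10. Aligner, counter, annotation release and strand setting: not given in the sources used here.

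Groups came from sample titles. Genes passing edgeR's filterByExpr were fitted over all 9 libraries (TMM, 6 residual degrees of freedom, edgeR 4.0.16 in R 4.3.3, quasi-likelihood test, Benjamini-Hochberg over all 12145 genes tested), with DEGs at an adjusted p under 0.05 and at least 2-fold. The procedure was run on simulated counts drawn with the dispersions fitted to these data. Far fewer genes were changed in them than pass here, so that run does not show how the procedure does at such numbers. CPM are on TMM-scaled library sizes, and intervals are at 95%. FPKM served to compare genes and as an alternative with limma 3.58.1. Other alternatives were DESeq2 1.42.0 and its size factors, no TMM, other filters, only the 2 groups compared, a replicate block, a 1.5-fold threshold and none, and leaving out each library.

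Of 22322 identifiers, 22267 matched GENCODE M21 (GRCm38), and all 37 members did. Promoters came from the RefSeq table on GRCm38.p6. Members called in any comparison, the 6 integrin and 6 laminin genes with the highest mean FPKM and Lama3, Lamb3, Itga6 and Itgb4 are given per library, and of the pathway lists the genes past 2-fold are named. A rule on gene symbols set the members. The choice of these gene families and of the lists was made with earlier results of these data known. Counts cover all members, but the values of 1 member are not reported here. Annotation columns of the table were not used.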

Additional observations from a re-analysis of the deposited data

How the results depend on the processing

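Over 1186 recomputed log2 fold changes of the 22 tested members, 1105 kept their direction and their side of the threshold, 55 were no longer past it, 12 passed newly and 14 reversed, and the cause was not tested. The reversals all lay in differences that had not passed. Itga5 with the medium against normal RGCs was 0.01, turned to -0.0902 without TMM scaling (adjusted p by edgeR 0.0292, the only reversed value that passed) and -0.0876 and -0.0888 by limma on log2(FPKM + 1) and log2(FPKM + 0.1), and ranged from -0.0196 to 0.045 on leaving out a library. Itga3 with the medium against aging RGCs turned to -0.0509 without TMM scaling. In the same comparison, leaving out a library gave -0.691 to 0.427 for Itga4 and -1.27 to 0.774 for Itgb1 (both positive only without aging 1), and -0.226 to 2.04 for Itgam (negative only without medium 3). Lama3 in aging RGCs was -0.00119 by limma on log2(FPKM + 1) and -0.121 to 0.597 on leaving out a library, and -0.33 to 0.389 in the medium against normal RGCs. A replicate block could be fitted, but same-numbered libraries did not deviate together (correlations -0.0368 to 0.0479), and the numbers were not taken as pairs. Under the replicate block 66 of 66 calls stayed as they were.

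At 1.5-fold, upregulated members were 1 in aging RGCs, 1 with the medium against normal RGCs, and downregulated members were 2, 1 and 6 in aging against normal RGCs, medium against aging RGCs and medium against normal RGCs. With no fold threshold they were 2, 3 and 4 upregulated and 13, 8 and 15 downregulated. By limma on log2(FPKM + 1) or log2(FPKM + 0.1), downregulated members were 0 in aging RGCs (log2(FPKM + 1)) and 0 with the medium against normal RGCs (both scales), and members higher at any fold change in aging RGCs were 1. Itgam, Itga4 and Itgb1 did not exceed 0.51 FPKM, so on the log2(FPKM + 1) scale they could not fall 2-fold. The counts of 0 on that scale therefore do not bear on their calls. DESeq2 gave 1 downregulated with the medium against normal RGCs, and no filter on low counts gave 1 upregulated, Itgam, with the medium against aging RGCs. Leaving out a library gave 1 to 3 downregulated members in aging RGCs, 1 to 3 with the medium against normal RGCs, 0 to 1 upregulated with the medium against aging RGCs and 1 to 2 higher at any fold change in aging RGCs. The counts at any fold change and the lists of pairs and trimers were added after the data had been seen. Members under about 60 counts (Itgam, Itga4, Itgb1, Lama3) limit the precision, and 15 members did not pass the filter on low counts.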
